A study of Homo sapiens with 6 samples.

Results

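The genes described here are 10 members of the epidermal growth factor receptor (EGFR) signaling module: the receptors EGFR, ERBB2 and ERBB3, the ligands AREG, EREG, HBEGF, TGFA and BTC, and the inhibitors ERRFI1 and LRIG1. They were taken by gene symbol from a table of 16551 protein-coding genes, and all 10 were present and passed the filter on low counts. The table covers 6 RNA libraries labelled HaCaT, a spontaneously immortalised keratinocyte line of human skin; that identity comes from the labels, and the marker levels given below bear on it. Of these, 3 libraries came from cells labelled NC, the control group that the series design calls si-NC, and 3 from cells labelled si-YTHDF2, a name that denotes knockdown of YTHDF2 by small interfering RNA. The YTHDF2 protein is a cytoplasmic reader of N6-methyladenosine (m6A) that promotes decay of the mRNAs it binds. The labels name no other agent, dose or time, and they do not say whether replicates are separate cultures. The p-values therefore rest on the spread among libraries of a group, and that spread may be technical.

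The ERBB receptors are tyrosine kinases of the cell surface that pair when ligand binds and signal through RAS, ERK and PI3 kinase. ERBB2 has no known ligand of its own, and ERBB3 has a weak kinase and binds neuregulins, so both act mainly as partners. The EGFR ligands are made as membrane-anchored precursors that metalloproteases shed, and keratinocytes use amphiregulin, TGF-alpha and HB-EGF as autocrine growth factors. ERRFI1 (also called MIG6) binds the kinase domain of the receptors and blocks it, and LRIG1 promotes receptor degradation.

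In GRCh38, EGFR (ENSG00000146648) maps to chromosome 7 (plus strand, 55019021 to 55211628). ERBB2 (ENSG00000141736) maps to chromosome 17 (plus strand, 39687914 to 39730426), and ERBB3 (ENSG00000065361) to chromosome 12 (plus strand, 56076799 to 56103505). ERRFI1 (ENSG00000116285) maps to chromosome 1 (minus strand, 8004404 to 8026308), and LRIG1 (ENSG00000144749) to chromosome 3 (minus strand, 66378797 to 66501263). TGFA (ENSG00000163235) maps to chromosome 2 (minus strand, 70447280 to 70554193), and HBEGF (ENSG00000113070) to chromosome 5 (minus strand, 140332843 to 140346631). The other 3 ligands are neighbours on chromosome 4. EREG (ENSG00000124882) spans 74365143 to 74388751 and AREG (ENSG00000109321) spans 74445134 to 74455009, both on the plus strand and 56.4 kb apart. BTC (ENSG00000174808) follows on the minus strand from 74744759 to 74794686, 290 kb beyond AREG.

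Because YTHDF2 reads m6A, which is deposited mainly in GGACU-like contexts and often near stop codons, the GGACT letters of the members' main GENCODE 29 transcripts were located. They occurred in 8 of the 10 members, compared with 91.9% of 12186 tested genes that had a transcript. The transcripts of AREG and ERRFI1 held none. EGFR held 12 matches (1.22 per kb), ERBB3 7 (1.18 per kb) and ERBB2 3 (0.66 per kb), against a median of 0.934 per kb over those genes. Within 200 bases either side of the last coding base, 4 of the 10 members held a match, compared with 37.9% of 10938 genes with the full window. The match nearest the last coding base is shown for the 3 receptors, whose RNA levels moved in different directions, and for TGFA, the ligand with the highest level. GGACT is in capitals, 12 bases flank it on each side, and the letters are those of the transcript, 5′ to 3′. A match in these letters is not a measured m6A site.
EGFR, coding, chr7:55205494-55205522, plus strand, 108 bases before the last coding base: tgactaccagcaGGACTtctttcccaagg
ERBB2, coding, chr17:39726653-39726836, plus strand, across an exon junction, 789 bases before the last coding base: catccagaatgaGGACTtgggcccagcca
ERBB3, coding, chr12:56097084-56097112, plus strand, 1700 bases before the last coding base: gtaaggctgctgGGACTatgcccagggtc
TGFA, 3′ UTR, chr2:70450814-70450842, minus strand, 32 bases after the last coding base: gtttggccaggtGGACTgtggcagatcaa

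Promoter windows from RefSeq (GRCh38.p14), 250 bases before to 50 after 1 start per member, were matched for 9 of the 10 members, all but ERBB3. Both strands were searched for AP-1 (TGANTCA), the cyclic AMP element (TGACGTCA), the GC box (GGGCGG), the CCAAT box (CCAAT) and TEAD (GGAATG). The GC box occurred in 7 of the 9 windows and in 44.6% of all 27305 promoters, and the CCAAT box in 4 of the 9 and in 35.7% of all. AP-1 letters occurred in the ERBB2 window alone (7.76% of all promoters), the cyclic AMP element in that of AREG alone (1.98%) and TEAD letters in that of EREG alone (14.0%). The AP-1 letters are loose, since N stands for any base, and the ERBB2 match reads TGATTCA. The windows of EGFR and ERRFI1, whose RNAs were higher in si-YTHDF2, and of ERBB2, whose RNA was lower, are shown with matches on either strand in capitals. The EGFR window has 3 GC boxes, and that of ERRFI1 has 1 CCAAT box and 1 GC box. That of ERBB2 has 1 CCAAT box and 1 match to the loose AP-1 letters. The ERBB2 window spans the upstream end of the gene, which has 22 annotated transcripts. Whether the ERBB2 RNA of these cells starts there was not tested, so its matches describe this window and not every ERBB2 promoter.
EGFR, chr7:55018767-55019066, plus strand: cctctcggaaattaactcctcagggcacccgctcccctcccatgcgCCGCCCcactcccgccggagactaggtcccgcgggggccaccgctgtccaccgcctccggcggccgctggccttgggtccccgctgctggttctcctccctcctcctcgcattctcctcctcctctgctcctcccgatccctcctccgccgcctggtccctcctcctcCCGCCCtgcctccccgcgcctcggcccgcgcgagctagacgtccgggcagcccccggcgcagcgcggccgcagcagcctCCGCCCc
ERRFI1, chr1:8026260-8026559, minus strand: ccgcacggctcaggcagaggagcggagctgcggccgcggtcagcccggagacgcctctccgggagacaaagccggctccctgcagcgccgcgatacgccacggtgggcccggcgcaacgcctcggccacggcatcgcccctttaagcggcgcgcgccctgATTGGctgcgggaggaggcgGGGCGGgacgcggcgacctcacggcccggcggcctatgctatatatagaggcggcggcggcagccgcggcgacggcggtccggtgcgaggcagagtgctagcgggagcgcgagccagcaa
ERBB2, chr17:39687844-39688143, plus strand: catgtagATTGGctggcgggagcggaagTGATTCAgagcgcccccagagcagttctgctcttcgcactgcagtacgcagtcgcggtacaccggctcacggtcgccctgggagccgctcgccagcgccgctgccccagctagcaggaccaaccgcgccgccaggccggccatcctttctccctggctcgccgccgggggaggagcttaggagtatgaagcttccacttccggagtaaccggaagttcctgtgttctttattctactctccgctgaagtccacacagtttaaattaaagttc

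Total counts ran from 19803707 to 22698069 per library. YTHDF2 was at 74.6, 77.5 and 83.8 CPM (counts scaled to library size with TMM factors) in NC and at 43.0, 48.4 and 43.5 CPM in si-YTHDF2, a log2 fold change of -0.81 (SE 0.07; edgeR quasi-likelihood test, adjusted p = 4.13e-07; exact two-sided permutation p = 0.1, the smallest that 3 against 3 allows). Of 10 basal keratinocyte markers 3 were called higher and 4 lower (edgeR adjusted p under 0.05), against 26.1% and 25.2% of all genes tested. The same shares apply to the marker counts that follow. The higher ones were KRT5, which was abundant (2029 CPM in NC and 2384 CPM in si-YTHDF2), COL17A1 (175 to 272 CPM) and DST (257 to 414 CPM). The lower ones were KRT15 (865 to 264 CPM), KLF5 (207 to 74.2 CPM), ITGA6 (310 to 240 CPM) and TP63 (376 to 308 CPM). KRT14, which basal keratinocytes normally express with KRT5, was nearly absent at 2.22 and 2.00 CPM, so this defining marker goes against the label in both groups; whether reads shared with near-identical keratin genes affected its count was not tested. Summed erythroid markers were at 55.7 to 58.3 CPM in NC and 1544 to 1775 CPM in si-YTHDF2, and all 7 tested were higher, while AHSP, the chaperone of alpha globin, was at 0 in every NC library and at 4, 2 and 0 counts in si-YTHDF2. Summed platelet markers went from 0.542 to 0.778 CPM in NC to 10.8 to 12.6 CPM, and lymphoid markers from 0.305 to 0.588 CPM to 5.38 to 6.97 CPM. Of 9 myeloid markers tested 5 were higher and 3 lower. Higher were LYZ (from 0.478 to 6.93 CPM), ITGAM, FCGR3A, CSF3R and S100A8, and lower were CD14, S100A9 and CLEC7A. The 5 higher ones passed the filter on low counts only with their si-YTHDF2 libraries, so the filter largely fixed their direction. The same holds for the erythroid markers ALAS2, HEMGN, SLC4A1 and CA1 and for the tested platelet and lymphoid markers. CD68, FCER1G, TYROBP and MPO, at 15 counts or fewer per library, were not tested. The myeloid sum, carried mostly by S100A9 and CLEC7A, overlapped at 51.0 to 56.9 and 47.7 to 52.3 CPM. Endothelial markers summed to 39.5 to 44.0 CPM in NC and 50.8 to 55.0 CPM in si-YTHDF2. CDH5 carried most of that sum (37.2 and 45.0 CPM) and was the only 1 called of the 4 tested. The simple-epithelium keratins, 4 of 4 lower, summed to 6627 to 6933 CPM in NC and 4814 to 5370.0 CPM in si-YTHDF2. The 10 basal keratinocyte markers summed to 5106 to 5291 CPM in NC and 4684 to 5056 CPM in si-YTHDF2. In NC, KRT19 (2356 CPM) and KRT7 (2037 CPM) were at least as abundant as KRT5, while KRT8 (1296 CPM) and KRT18 (1054 CPM) were less so. The part of these transcripts in the results that follow was not tested. Fibroblast markers summed to 26.0 to 78.1 CPM in NC and 34.9 to 41.9 CPM in si-YTHDF2, and NC replicate 1 stood apart in them, with 733 counts of COL3A1 against 213 and 177. Over all genes, replicate 1 of si-YTHDF2 stood apart from the other 2 of its group, and without it the same numbers of members were called, 2 higher and 2 lower.

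Across the 10 members, EGFR and ERRFI1 were higher in si-YTHDF2, ERBB2 and ERBB3 were lower, and the 5 ligands and LRIG1 did not pass the test. Calls were made by edgeR's quasi-likelihood test at an adjusted p (Benjamini-Hochberg) under 0.05. Over all 12264 genes tested 51.2% were called, so 4 called members of 10 is a share near that background. In each direction 2 members were called, against 26.1% of all genes higher and 25.2% lower. No called member changed by 1.5-fold or more, whereas 16.8% of all genes were both called and changed by that much. At an adjusted p under 0.01 the 4 calls remained, against 38.0% of all genes called. The median size of the log2 fold change was 0.34 over the members and 0.26 over all genes. The member median rests in part on uncalled genes with wide errors. AREG (0.45, SE 0.27) and BTC (-0.41, SE 0.32) lay above it in size, and EREG (0.28, SE 0.40) and LRIG1 (0.17, SE 0.30) below. Scaled by library totals alone, without TMM factors, 3860 genes were called higher and 2433 lower, against 3199 and 3086, and 3 members were called higher and 2 lower, the third being TGFA.

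**Figure D1:**
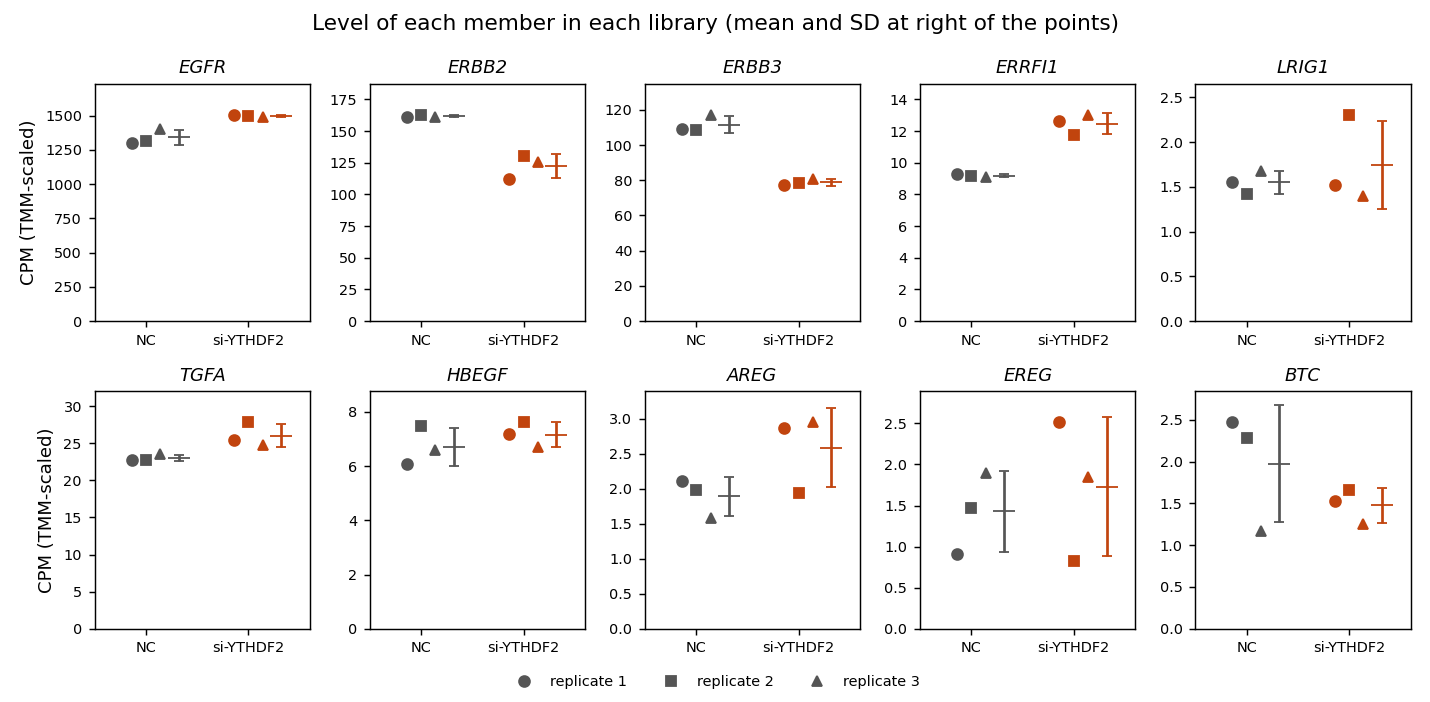
Level of each member in each library, in CPM scaled by TMM factors (y axes start at 0 and differ between genes), for NC (grey) and si-YTHDF2 (orange), with symbols for replicate numbers and the group mean and SD at the right. The si-YTHDF2 points lie above all NC points for EGFR, ERRFI1 and TGFA and below them for ERBB2 and ERBB3, and the groups overlap for the other 5 genes.

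EGFR, the receptor shared by all 5 ligands, was at 1300, 1318 and 1405 CPM in NC and at 1507, 1495 and 1491 CPM in si-YTHDF2. All si-YTHDF2 libraries were above all NC libraries, and NC replicate 3 came closest to them. The means ± SD of 3 libraries a group were 1341 ± 56.1 and 1498 ± 8.58 CPM, and the fitted log2 difference was 0.16 (SE 0.04, 95% interval 0.06 to 0.26, edgeR adjusted p = 0.00909), or 1.12-fold. The call was lost without NC replicate 1: the log2 fold change was 0.14 and the edgeR adjusted p was 0.0700, which left ERRFI1 as the 1 member called higher. That library is the one with the most fibroblast marker counts, whose part in the result was not tested. In bulk RNA, fewer cells of a type and less RNA per cell cannot be told apart, here and for the other members.

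ERBB2, the receptor without a known ligand, was at 161, 163 and 161 CPM in NC and at 112, 130 and 125 CPM in si-YTHDF2. The groups did not overlap, and si-YTHDF2 replicate 1 was the lowest. The means ± SD of 3 libraries a group were 162 ± 1.02 and 123 ± 9.51 CPM, and the fitted log2 difference was -0.40 (SE 0.06, 95% interval -0.53 to -0.27, edgeR adjusted p = 8.92e-05), which left 75.7% of the NC level. Its exons share 571 bases (5.53% of their length) with MIEN1 and 194 bases with PGAP3, both on the opposite strand, and strand use in counting is not given in the sources used here. Neither neighbour was called (-0.07 and 0.29 on the log2 scale; adjusted p = 0.491 and 0.0518 by edgeR).

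ERBB3, the receptor of neuregulins, was at 109, 109 and 117 CPM in NC and at 77.0, 78.5 and 80.6 CPM in si-YTHDF2. It had the most negative log2 fold change of the members, and every si-YTHDF2 library lay below every NC library. The means ± SD of 3 libraries a group were 112 ± 4.88 and 78.7 ± 1.81 CPM, and the fitted log2 difference was -0.50 (SE 0.06, 95% interval -0.62 to -0.38, edgeR adjusted p = 5.56e-06), or 1.42-fold lower. Among all genes tested, 24.4% had a larger change in either direction. With ERRFI1 and TGFA below, the groups did not overlap for 5 of the 10 members, against 58.5% of all genes tested.

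Because the receptors moved in different directions, their proportions differed between the groups. Per length (RPKM, the CPM divided by kilobases of annotated exon), EGFR made up 79.0, 79.1 and 79.7% of the summed receptor level in NC and 86.1, 84.8 and 85.0% in si-YTHDF2. The ratio of EGFR to ERBB3 was 8.67 ± 0.0657 in NC and 13.7 ± 0.389 in si-YTHDF2 (SD, n = 3 each), and that of EGFR to ERBB2 was 6.83 ± 0.296 and 10.1 ± 0.866. These ratios did not overlap between groups, whereas the ratio of ERBB2 to ERBB3 did, at 1.21 to 1.31 in NC and 1.27 to 1.45 in si-YTHDF2. The summed level of the 3 receptors overlapped too, at 131 to 141 RPKM in NC and 139.8 to 141 RPKM in si-YTHDF2. These shares, ratios and sums depend on the lengths used. Annotated exons cover 12521 bases for EGFR, 10321 for ERBB2 and 9039 for ERBB3, against 9821, 4545 and 5919 in their main transcripts. Other lengths, if the same in all libraries, would scale each ratio alike in both groups. The value of a ratio is therefore less sure than its separation between groups.

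**Figure D2:**
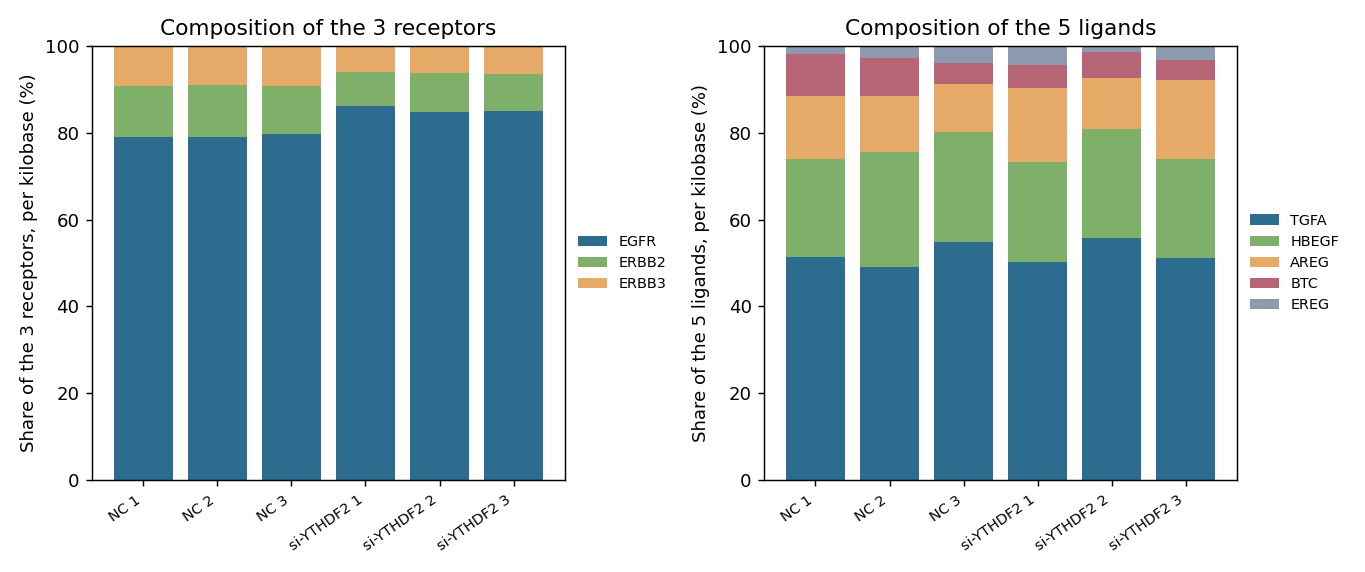
Composition of the receptor and ligand levels per length in each library, in percent of the sum of 3 receptors or 5 ligands (RPKM). The EGFR share of the receptors is 79.0 to 79.7% in NC and 84.8 to 86.1% in si-YTHDF2, while the TGFA share of the ligands overlaps between the groups.

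ERRFI1, the kinase inhibitor that ERK signaling itself induces in many cells, was at 9.28, 9.14 and 9.08 CPM in NC and at 12.6, 11.7 and 13.04 CPM in si-YTHDF2. The NC libraries were close together and all si-YTHDF2 libraries were above them. The means ± SD of 3 libraries a group were 9.17 ± 0.103 and 12.5 ± 0.671 CPM, and the fitted log2 difference was 0.44 (SE 0.11, 95% interval 0.20 to 0.68, edgeR adjusted p = 0.00438), or 1.36-fold. Relative to its target, the per-length ratio of EGFR to ERRFI1 was 48.9 ± 2.53 in NC and 40.3 ± 2.22 in si-YTHDF2, without overlap. An antisense gene shares 155 bases (3.70%) of ERRFI1's exons.

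LRIG1, the other inhibitor, had 28 to 37 counts per NC library and 28 to 50 per si-YTHDF2 library. Its levels of 1.56, 1.42 and 1.67 CPM in NC and 1.53, 2.31 and 1.40 CPM in si-YTHDF2 overlapped. The log2 fold change was 0.17 with a 95% interval of -0.47 to 0.81 (edgeR adjusted p = 0.662), an interval that holds both no change and a rise of 1.5-fold; leaving out single libraries gave -0.08 to 0.30. LRIG1 shares 907 exon bases (12.9%) with SLC25A26 on the opposite strand, which had 254 to 288 counts per library.

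Among the ligands, TGFA, which binds EGFR alone, was at 22.8, 22.8 and 23.5 CPM in NC and at 25.4, 27.8 and 24.8 CPM in si-YTHDF2. The groups did not overlap, yet the gene was not called: the log2 fold change was 0.18 (SE 0.08, unadjusted 95% interval 0.01 to 0.35, edgeR adjusted p = 0.0775). Scaled by library totals alone it was 0.24 and passed the test (edgeR adjusted p = 0.0208).

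HBEGF, which binds EGFR and ERBB4, was at 6.08, 7.47 and 6.60 CPM in NC and at 7.18, 7.61 and 6.69 CPM in si-YTHDF2. The ranges overlapped, with a log2 fold change of 0.09 (95% interval -0.22 to 0.41, edgeR adjusted p = 0.618), and 0.03 without NC replicate 1 or 0.17 without NC replicate 2. AREG, a ligand of EGFR, was at 2.10, 1.98 and 1.58 CPM in NC and at 2.87, 1.94 and 2.95 CPM in si-YTHDF2. Replicate 2 of si-YTHDF2 lay within the NC range and the other 2 above it, and the log2 fold change of 0.45 had a 95% interval of -0.12 to 1.03 (edgeR adjusted p = 0.175).

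EREG, a ligand of EGFR and ERBB4, was at 0.915, 1.47 and 1.90 CPM in NC and at 2.51, 0.831 and 1.85 CPM in si-YTHDF2, so the highest and the lowest of the 6 libraries were both si-YTHDF2. Its log2 fold change of 0.28 had a 95% interval of -0.59 to 1.14 (edgeR adjusted p = 0.593), and it was -0.09 without si-YTHDF2 replicate 1. BTC, also a ligand of EGFR and ERBB4, was at 2.47, 2.29 and 1.18 CPM in NC and at 1.53, 1.66 and 1.25 CPM in si-YTHDF2. All si-YTHDF2 libraries lay between the lowest NC library and the other 2, and the log2 fold change was -0.41 (95% interval -1.11 to 0.28, edgeR adjusted p = 0.309), or -0.22 without NC replicate 1 and -0.68 without NC replicate 3. The 3 neighbours on chromosome 4 thus had fold changes of both signs, with counts of 18 to 64 per library that limit their precision.

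**Figure D3:**
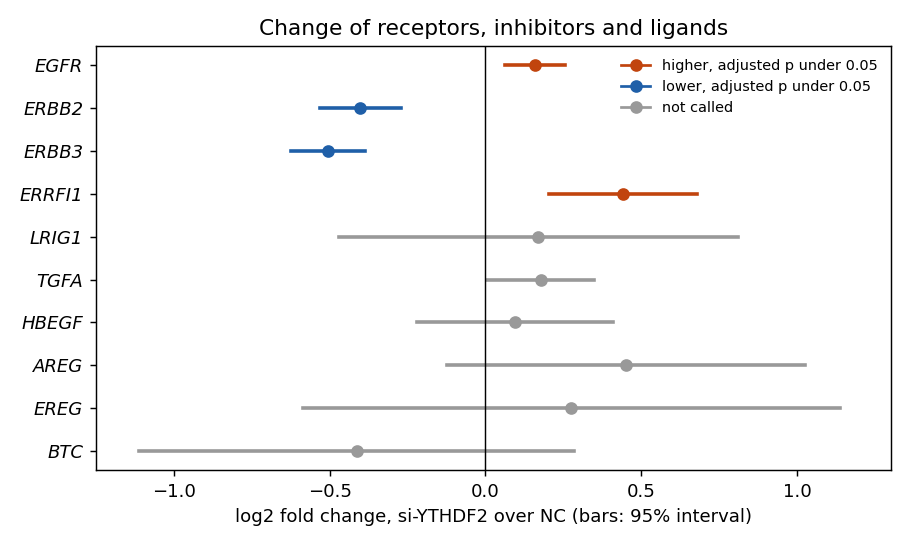
Log2 fold change of each member, si-YTHDF2 over NC, from edgeR (points) with unadjusted 95% intervals (bars), coloured by the call at an adjusted p under 0.05. EGFR and ERRFI1 lie right of 0, ERBB2 and ERBB3 left of it, and the intervals of EREG and BTC are the widest.

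Per length, EGFR stood far above the other members, at 104 to 120 RPKM over the 6 libraries, and 2.45% of the genes tested had a higher level. ERBB2 (mean of the 6 libraries 13.8 RPKM) and ERBB3 (10.53 RPKM) followed; their ranges overlapped across groups, but ERBB2 was above ERBB3 in each library. Then came TGFA (4.94 RPKM), ERRFI1 (2.58 RPKM), HBEGF (2.30 RPKM), AREG (1.36 RPKM), BTC (0.614 RPKM), EREG (0.276 RPKM) and LRIG1 (0.234 RPKM). ERRFI1 overlapped HBEGF, BTC overlapped EREG and EREG overlapped LRIG1. Order and overlap between genes depend on the exon lengths used. For ERBB2 that length was 10321 bases, against 4545 bases in its main transcript, so its overlap with ERBB3 holds for this length only. In NC the levels of ERRFI1 (2.17 to 2.22 RPKM) lay within those of HBEGF (2.02 to 2.47 RPKM), whereas in si-YTHDF2 ERRFI1 (2.80 to 3.11 RPKM) lay above HBEGF (2.22 to 2.52 RPKM).

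The 5 ligands summed to 8.92, 9.33 and 8.63 RPKM in NC and to 10.2, 10.04 and 9.78 RPKM in si-YTHDF2, so the sums did not overlap although no single ligand was called; the sum was not tested. TGFA was the main component in both groups, at 51.8 ± 2.88% and 52.4 ± 3.05% of the sum (SD, n = 3 each). HBEGF contributed 24.8 ± 2.01% and 23.7 ± 1.28%. AREG contributed 12.8 ± 1.599% and 15.7 ± 3.49%.

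Of the other ligands and receptors of the family, 5 of 7 passed the filter on low counts, of which 1 was called higher and 1 lower, against 51.2% of all genes called; EPGN and NRG3 did not pass it. NRG1, a neuregulin that binds ERBB3 and ERBB4, rose from 117 ± 2.23 to 158 ± 4.96 CPM (SD, n = 3 each; by edgeR a log2 fold change of 0.44, adjusted p = 1.02e-05), while its receptor ERBB3 fell. Per length NRG1 was at 10.3 ± 0.196 RPKM in NC and 14.0 ± 0.438 RPKM in si-YTHDF2, above each of the 5 EGFR ligands. NRG2, another neuregulin, fell from 2.73 ± 0.688 to 1.29 ± 0.0959 CPM (edgeR log2 fold change -1.07, adjusted p = 0.00570). EGF itself was at 0.938 and 0.521 CPM and was not called (edgeR adjusted p = 0.0897), nor was NRG4, at 16.9 and 15.3 CPM (edgeR adjusted p = 0.267).

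Of the genes that act in ligand shedding, 11 of 12 were tested, with 1 higher, 5 lower and a median log2 fold change of -0.16; 6 of 11 called is near the 51.2% over all genes. TIMP3, an inhibitor of the sheddase ADAM17, fell from 427 ± 7.75 to 119 ± 8.28 CPM (edgeR log2 fold change -1.85, adjusted p = 2.45e-11). RHBDL2, a rhomboid protease, fell from 10.47 to 5.03 CPM (edgeR log2 fold change -1.06, adjusted p = 1.93e-05). ADAM10, which sheds EGF and BTC in mouse cells, fell from 379 to 282 CPM (edgeR log2 fold change -0.43, adjusted p = 8.85e-05), and the metalloprotease ADAM15 from 81.5 to 66.2 CPM (edgeR log2 fold change -0.30, adjusted p = 0.00146). The member called higher was ADAM17, which sheds TGFA, AREG and HBEGF in mouse cells, named after its values were seen; it went from 87.3 to 106 CPM (edgeR log2 fold change 0.29, adjusted p = 0.00170).

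Of 20 genes of receptor down-regulation, all tested, 6 were higher and 8 lower, with a median log2 fold change of -0.08, against 26.1% higher and 25.2% lower over all genes. CD2AP, an adaptor of CBL-driven endocytosis, fell from 106 to 70.1 CPM (edgeR log2 fold change -0.60, adjusted p = 4.50e-05), and CBL, the ubiquitin ligase of activated EGFR, from 148 to 116 CPM (edgeR log2 fold change -0.35, adjusted p = 0.000121). PTPN1, a phosphatase of EGFR, rose from 81.8 to 112 CPM (edgeR log2 fold change 0.46, adjusted p = 5.25e-05). UBASH3B, which binds CBL and slows receptor degradation, rose from 21.0 to 31.1 CPM (edgeR log2 fold change 0.57, adjusted p = 5.28e-05).

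Of the signal transducers, 29 of 30 were tested, with 6 higher, 11 lower and a median log2 fold change of -0.09; 17 of 29 called compares with 51.2% over all genes. RRAS, a RAS-related GTPase, fell from 28.4 to 14.9 CPM (edgeR log2 fold change -0.92, adjusted p = 8.32e-07), and SOS1, the exchange factor for RAS, from 113 to 82.4 CPM (edgeR log2 fold change -0.45, adjusted p = 6.45e-05). PLCG1, the phospholipase recruited by EGFR, rose from 63.9 to 97.6 CPM (edgeR log2 fold change 0.61, adjusted p = 1.37e-06). MAP2K2, a kinase that activates ERK, rose from 145 to 194 CPM (edgeR log2 fold change 0.42, adjusted p = 5.23e-05).

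Of 10 transcripts that are commonly read as ERK output, 7 were called higher and 1 lower, against 26.1% and 25.2% of all genes tested, with a median log2 fold change of 0.44 against 0.01. ETV5 and ETV4, transcription factors induced by ERK, rose from 16.0 ± 0.714 to 55.5 ± 7.76 CPM (edgeR log2 fold change 1.79, adjusted p = 7.57e-09) and from 25.4 ± 2.66 to 47.7 ± 3.94 CPM (edgeR log2 fold change 0.91, adjusted p = 2.08e-06). CCND1, which encodes cyclin D1, rose from 407 to 558 CPM (edgeR log2 fold change 0.46, adjusted p = 2.44e-06). EPHA4, an ephrin receptor, fell from 22.5 to 6.85 CPM (edgeR log2 fold change -1.71, adjusted p = 2.69e-08). The other 4 called higher were DUSP4, DUSP6, EPHA2 and SPRY4, and PHLDA1 and SPRY2 were not called. This list, like the others, was chosen with earlier results of these data known, so its count is a description only. ERK activity was not measured.

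**Figure D4:**
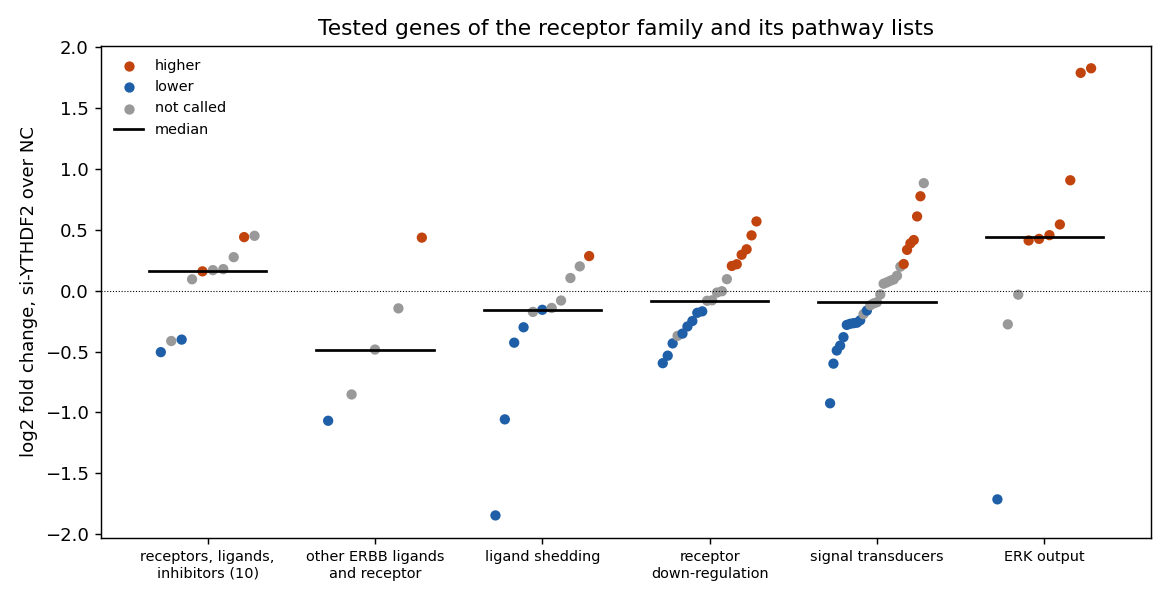
Log2 fold change, si-YTHDF2 over NC, of each tested gene of the members and of 5 lists of pathway genes, coloured by the edgeR call at an adjusted p under 0.05. The ERK output list has 7 of 10 genes called higher, while the lists of receptor down-regulation and of signal transducers have genes on both sides of 0. The lists were chosen with earlier results of these data known.

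By Euclidean distance between centred log2 CPM profiles over the 6 libraries, the genes most like ERRFI1, the called member with the highest log2 fold change, were NEMP1 (distance 0.0674), TRMO (0.0690), AREL1 (0.0695), NRG1 (0.0776) and ST7 (0.0805). The log2 fold changes of these genes ran from 0.39 to 0.44. The genes most like ERBB3, the called member with the lowest, were RSRP1 (distance 0.0392), HEG1 (0.0416), JAG1 (0.0519), ANKH (0.0535) and KDM5B (0.0666), with log2 fold changes from -0.52 to -0.47. With 2 groups setting most of the variation, closeness over 6 libraries reflects a similar difference between the groups.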

How the data were processed

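RNA was extracted with Trizol, depleted of ribosomal RNA and made into libraries with a low-input GenSeq kit, per the labels' protocols. Raw read counts per gene and library were made by the authors, per the file headers. Each count column used carries the word Input in its name, which the labels do not explain. The submitters' processing notes name hg38; aligner, counting program and strand use were not given in the sources used here. A further 6 normalized columns were not used. Members were matched by symbol, 3 libraries a group. Counts were tested with edgeR 4.0.16 (R 4.3.3; quasi-likelihood, TMM factors, filterByExpr, no covariate) with Benjamini-Hochberg adjustment over 12264 genes. SE is the log2 fold change over the square root of F, and intervals are unadjusted. RPKM used GENCODE 29 exon lengths, so it depends on the isoforms present. The script was tested on simulated data. Named are the members, the 4 genes of smallest p in each pathway list, the 5 nearest profiles of the highest and lowest called members, and YTHDF2. The members and lists were chosen with earlier results of these data known. Alternatives were other scalings (RLE, upper quartile, library totals), filters and thresholds, DESeq2 1.42.0, limma-voom (limma 3.58.1), a replicate block and leaving out each library.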

Additional observations from a re-analysis of the deposited data

How the results depend on the processing

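Over 14 alternatives, ERBB2 (log2 fold change -0.45 to -0.33), ERBB3 (-0.52 to -0.44) and ERRFI1 (0.40 to 0.51) were called in the same direction in all, and EGFR (0.14 to 0.23) in 13. Leaving out each library gave 0.14 to 0.19 for EGFR, -0.09 to 0.61 for EREG, -0.08 to 0.30 for LRIG1, -0.68 to -0.22 for BTC, 0.03 to 0.17 for HBEGF, 1 to 2 members called higher, 1 to 2 ERK output genes called lower and 1 to 2 shedding genes called higher. EREG was at -0.0933 without si-YTHDF2 replicate 1, the library least like the others of its group, and LRIG1 at -0.0835 without si-YTHDF2 replicate 2; neither was called in any alternative. With library totals TGFA was called (0.243), 2 shedding genes were higher and 4 down-regulation genes lower. With a mean count of at least 50, 0 other family genes were lower, since fewer were tested. With a further requirement of 1.5-fold, 0 members were higher and 0 lower. The cause was not tested for the others. The 30 other named genes kept direction and call in 418 of 418 alternative values. Same-numbered libraries deviated together weakly (r = 0.0553, 0.0524 and 0.0349), so the numbers were not taken to pair them, although each library correlated best with its own number, a hint from the data only. With the replicate block 3265 genes were called higher and 3173 lower, and EGFR was at 0.16, with 2 members higher and 2 lower. Counts of at most 64 per library limit the precision of AREG, EREG, BTC and LRIG1.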
